A study of Rattus norvegicus with 2 samples.

Results

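The antioxidant enzymes examined here are Sod1, Sod2, Sod3, Cat, Gpx1, Gpx4, Prdx1, Prdx2, Txn1 and Gclc, taken as every probe set of the array whose single platform gene symbol is 1 of these names. Of the 10 genes, 9 had such a probe set, 16 probe sets in all, among 4736 genes with a probe set of 1 symbol on the array. Txn1 matched none and is not analysed here. A further probe set lists Gpx4 among 10 genes and was left out by this rule. RNA of hippocampal synaptosomes, nerve endings separated biochemically together with their postsynaptic side, was set against RNA of the total hippocampus, both from Sprague Dawley rats at postnatal day 70 with no treatment given in the labels. There was 1 array of each, so every value below is a single measurement without a replicate, no test between the groups could be made, and the number of arrays limits the precision. How many animals went into either RNA is not given in the sources used here.

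These enzymes form the main line of defence against reactive oxygen. Superoxide dismutases turn superoxide, a by-product of mitochondrial respiration, into hydrogen peroxide, which catalase, the glutathione peroxidases and the peroxiredoxins then remove. Peroxiredoxins are recharged by thioredoxin, and glutathione peroxidases depend on glutathione, whose synthesis is limited by glutamate-cysteine ligase. Nerve endings are rich in mitochondria, and the design sought mRNAs enriched there over the tissue as a whole.

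Of the antioxidant enzymes with a measurable ratio, none reached a 2-fold higher signal in synaptosomes, and Sod2, the mitochondrial dismutase, was 5.48-fold lower at face value, with a synaptosome signal within the background spread. Prdx1 and Prdx2 lay between 1- and 2-fold lower, Gpx1 and Gpx4 had values on both sides of 0 or near it, and the 3 probe sets of Sod1 gave very different ratios. Sod3 and Gclc could not be measured. All ratios are log2 signal of synaptosomes minus log2 signal of total hippocampus, after signals under a floor of 846 were set to 846 and the median ratio of the filtered probe sets, -0.17, was subtracted. That subtraction makes a fold of a lower probe set smaller, and a fold of a higher one larger, than the quotient of its floored signals by a factor of 1.13.

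Of the 16 probe sets, 10 passed a filter on mean level, 1 lay above the floor on 1 array only and did not pass, and 5 were at the floor on both arrays. Among the 10 that passed, 2 were at least 2-fold lower, while 14.9% of all 4370 filtered probe sets were. None of the 10 reached 2-fold higher, while 19.1% of all did. Over the 7 genes that passed, each taken at its brightest filtered probe set, 1 was at least 2-fold lower, where 14.3% of all 2735 filtered genes were, and none reached 2-fold higher, where 19.1% did. With 10 probe sets and 7 genes, shares this near the background are no result about these enzymes. The deposited signal was lower in synaptosomes with 9 of the 10 probe sets before centring, 3 of the 9 being those of Sod1, against 56.3% of all filtered probe sets. After centring, 7 of the 10 had a ratio below 0, against 50% of all filtered probe sets, a share that centring on the median sets. The median ratio of the 7 genes was -0.56, the value of Prdx1, against 0.00 for all filtered genes. This median was -0.30 after a loess correction for level and -0.36 with quantile normalization. The error of a ratio between animals, preparations or arrays could not be gauged. The only spread at hand was that between probe sets of one gene on the same arrays. Their ratios had a standard deviation (SD) of 0.90 over 658 genes.

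**Figure D1:**
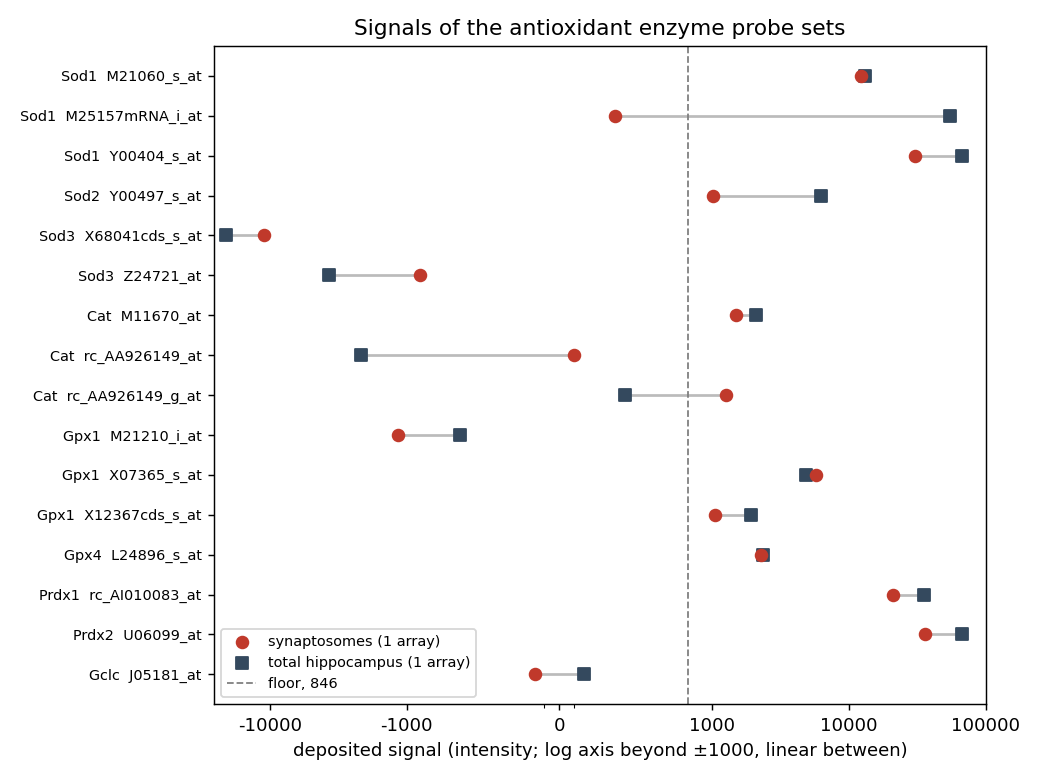
Deposited signal (intensity; logarithmic beyond 1000 on either side of 0, linear between) of the 16 probe sets, with synaptosomes as circles and total hippocampus as squares, 1 array each, and the floor of 846 dashed. The probe set M25157mRNA_i_at of Sod1 has the widest gap, 364 in synaptosomes and 54447 in the hippocampus, while both probe sets of Sod3 lie below 0 on both arrays.

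Upstream sequence is shown for Sod1, which had the most discordant probe sets, for Sod2, the gene past 2-fold, and for Prdx1, since the last 2 hold a match to the antioxidant response element through which the factor Nrf2 (Nfe2l2) acts on many redox genes. Each run is the 250 bases before the gene's start, 5′ to 3′ on the gene's strand, from RefSeq on assembly GRCr8. The Sod1 window is chr11:42942573-42942822 on the + strand, the Sod2 window chr1:50050169-50050418 on the - strand and the Prdx1 window chr5:135383656-135383905 on the + strand. Capitals mark matches to TGACNNNGC on either strand.
Sod1 window: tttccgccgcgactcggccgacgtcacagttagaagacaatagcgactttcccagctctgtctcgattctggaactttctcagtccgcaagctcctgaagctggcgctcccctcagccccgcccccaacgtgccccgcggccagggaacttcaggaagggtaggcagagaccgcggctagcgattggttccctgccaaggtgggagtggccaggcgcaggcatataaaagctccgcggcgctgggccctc
Sod2 window: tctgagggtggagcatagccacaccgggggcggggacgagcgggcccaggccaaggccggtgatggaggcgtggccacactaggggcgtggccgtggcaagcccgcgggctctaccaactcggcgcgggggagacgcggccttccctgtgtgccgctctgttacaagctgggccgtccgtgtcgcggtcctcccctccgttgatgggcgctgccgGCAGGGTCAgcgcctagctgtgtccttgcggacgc
Prdx1 window: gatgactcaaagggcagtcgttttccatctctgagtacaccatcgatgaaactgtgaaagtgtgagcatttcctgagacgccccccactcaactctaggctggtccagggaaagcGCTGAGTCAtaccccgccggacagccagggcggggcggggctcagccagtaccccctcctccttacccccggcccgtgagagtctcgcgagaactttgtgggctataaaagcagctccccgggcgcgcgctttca
The match in Sod2 begins 35 bases and that in Prdx1 135 bases before the start, and both read on the opposite strand. Windows were found for 9 of the 10 genes, with 3 for Gpx4, and these 2 genes held a match, while 10.1% of all 33469 windows did. The Sod1 window holds no match, which says only that these letters are not in it. The arrays measured mRNA levels, and nothing here bears on the use of these sequences.

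Superoxide dismutases gave the lowest values. Sod2, which works in the mitochondrial matrix, had a signal of 1023 in synaptosomes and 6313 in total hippocampus with its single probe set, Y00497_s_at, a log2 ratio of -2.46. The synaptosome signal lay close to the floor and within the spread of negative values on that array, whose sizes had a 95th percentile of 2912.6, while the hippocampus signal lay above the same measure of its own array, 5280.25. With both arrays floored at 5280.25, an alternative chosen after seeing the data, the ratio was -0.17, and with a floor of 2798.5 it was -1.09, so the size of the Sod2 difference rests on a synaptosome reading within the background spread.

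Sod1, the cytosolic copper-zinc dismutase, was read by 3 probe sets that did not give 1 answer. M21060_s_at read 12186 in synaptosomes and 13066 in total hippocampus, a log2 ratio of 0.07 that was -0.10 without centring. Y00404_s_at read 30502 in synaptosomes and 67430 in total hippocampus, a ratio of -0.97, just inside 2-fold and past it without centring at -1.14. The arrays nearly coincided in the first of these sets, and in the other they stood apart by slightly more than the SD of 0.90 between probe sets.

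The remaining Sod1 probe set, M25157mRNA_i_at, had readings of 364, below the floor, in synaptosomes and 54447 in total hippocampus. It was at least 57.2-fold lower in synaptosomes with the centring, and at least 64.4-fold lower against the floor without it. The ratio was -4.20 with a floor of 2798.5 and -3.27 with both arrays floored at 5280.25. It was the lowest ratio of all 4370 filtered probe sets, the next being -3.60. The range between the 3 ratios of Sod1, 5.91, was the widest of the 658 genes with several filtered probe sets. The next widest was 4.68, and the median over those genes was 0.87.

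The suffix _i_at marks a set for which the manufacturer found fewer unique probes than its design called for. Of the 58 filtered probe sets with this suffix, 11 were lower and 10 higher by 2-fold or more, and their median ratio was -0.24. Over all filtered probe sets, 14.9% were lower and 19.1% higher. Whether the makeup of the Sod1 set bears on its ratio was not tested. Without the _i_at sets, 1 of 9 filtered antioxidant probe sets, that of Sod2, was at least 2-fold lower. The share over all probe sets was not computed for that setting. The other Sod1 sets do not share the ratio of M25157mRNA_i_at, so the Sod1 mRNA level is not described by this set alone.

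Sod3, the secreted dismutase of the extracellular space, had no measurable signal. X68041cds_s_at read -10977 in synaptosomes and -20979 in total hippocampus, rank 5 and rank 9 from the bottom of the 8740 non-control probe sets. Z24721_at read -911 in synaptosomes and -3697 in total hippocampus. A reading below 0 carries no level, and for Sod3 no difference could be measured.

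**Figure D2:**
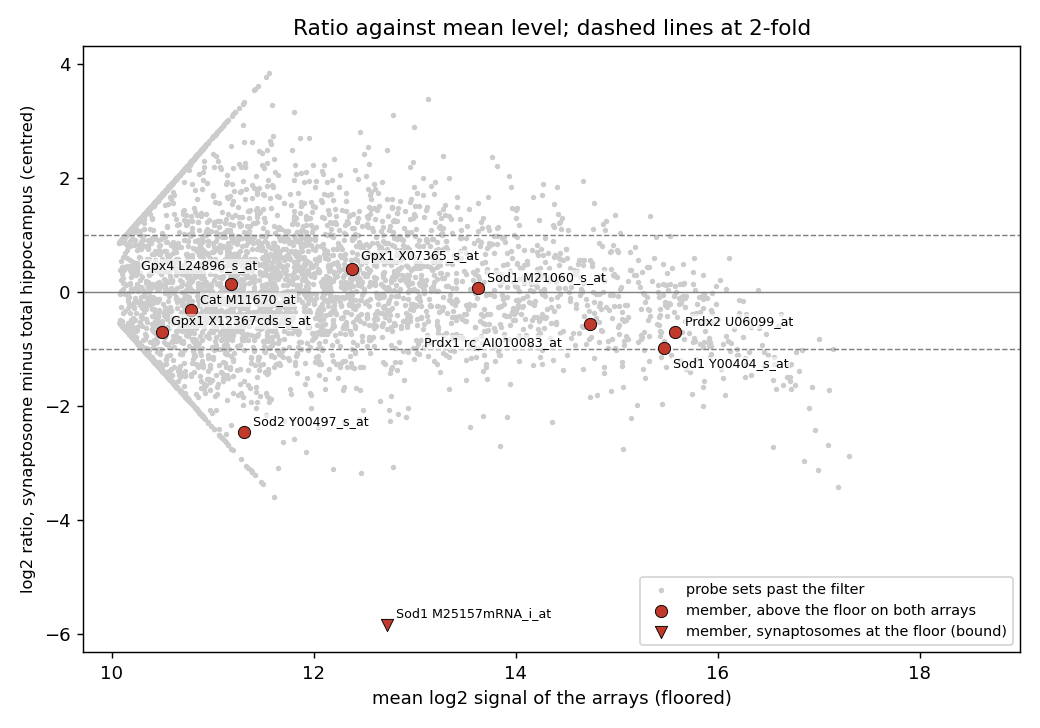
Centred log2 ratio, synaptosome minus total hippocampus, against the mean log2 signal of both arrays for the 4370 filtered probe sets (grey) and the 10 of antioxidant enzymes (red), with dashed lines at 2-fold. M25157mRNA_i_at of Sod1 lies below every grey point, Sod2 lies past 2-fold, and at the bright end, where Prdx1, Prdx2 and Y00404_s_at of Sod1 are, most probe sets lie under 0.

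Peroxiredoxins are abundant thiol peroxidases of the cytosol. Prdx2, the form especially plentiful in neurons and red blood cells, read 36220 in synaptosomes and 66474 in total hippocampus with U06099_at, a ratio of -0.71 or 1.63-fold lower. Prdx1 read 21185 in synaptosomes and 35194 in total hippocampus with rc_AI010083_at, a ratio of -0.56 or 1.48-fold lower. Both readings of both genes lay above the spread of negative values, and both differences were smaller than the SD of 0.90 between probe sets. Such ratios were common at this brightness. Of the 288 filtered probe sets at or above the mean level of the Prdx1 set, 75.3% had a ratio below 0, 24.7% were lower and 2.78% higher by 2-fold or more, and the median was -0.45. After a loess correction for level the ratios were -0.23 for Prdx2, -0.38 for Prdx1 and -0.54 for Y00404_s_at of Sod1.

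Glutathione peroxidases, selenium enzymes that reduce peroxides with glutathione, had probe sets on both sides of 0. Gpx1, the main cytosolic form, was the only antioxidant enzyme with a filtered probe set whose deposited signal was higher in synaptosomes, with 5766 in synaptosomes and 4918 in total hippocampus for X07365_s_at, a ratio of 0.40. Its second set, X12367cds_s_at, read 1066 in synaptosomes and 1953 in total hippocampus, a ratio of -0.70. The third, M21210_i_at, read -1165 in synaptosomes and -650 in total hippocampus and gives no ratio. The 2 measurable sets of Gpx1 thus pointed in opposite directions, 1.10 apart. Gpx4, which reduces lipid peroxides within membranes, read 2299 in synaptosomes and 2357 in total hippocampus with L24896_s_at, a ratio of 0.13 that was -0.04 without centring. Both Gpx4 readings, both of X12367cds_s_at and the hippocampus reading of X07365_s_at lay within the spread of negative values of their arrays.

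Catalase, the peroxisomal enzyme that splits hydrogen peroxide, had weak signals. M11670_at of Cat read 1495 in synaptosomes and 2092 in total hippocampus, a ratio of -0.31 or 1.24-fold lower. A second set, rc_AA926149_g_at, had a signal of 1265 in synaptosomes and one of 431 in total hippocampus, the second of them floored. Its ratio against the floor was 0.75, and it did not pass the filter. The third, rc_AA926149_at, read 96 in synaptosomes and -2143 in total hippocampus. The Cat readings lay within the spread of negative values on both arrays and the 2 ratios had opposite signs, so no direction can be given. Gclc, the catalytic subunit of the enzyme that limits glutathione synthesis, read -160 in synaptosomes and 163 in total hippocampus with J05181_at, both under the floor, and no difference could be measured.

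Other genes of redox defence were counted from a list of 79 names, of which 51 were on the array and 35 passed the filter. Past 2-fold, 6 of these 35 genes were higher and 7 lower, the other 22 were within it, and the median ratio was -0.09. The shares over all filtered genes are the 19.1% and 14.3% above. Some of the 22 had another filtered probe set past 2-fold. Such a set had a ratio of 1.93 for Apoe, 2.22 for Txnip and -1.72 for Ucp2, beside gene values of -0.87, 0.14 and -0.14. The hippocampus readings of these sets lay within the spread of negative values. Among genes above the floor on both arrays, the 4 lowest were Mgst1, Gstp1, Mt3 and Mgst3. Mgst1, a microsomal glutathione transferase, read 940 in synaptosomes and 2755 in total hippocampus, 2.60-fold lower, with both readings within the spread of negative values. Gstp1, a cytosolic glutathione transferase, read 7270 in synaptosomes and 18577 in total hippocampus, 2.27-fold lower, and its other probe set gave a ratio of -0.75. Both probe sets of Gstp1 lay above that spread and on the same side.

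Mt3, the metallothionein of brain, read 48547 in synaptosomes and 117667 in total hippocampus, 2.15-fold lower. Mgst3, a membrane-bound relative of Mgst1, read 40470 in synaptosomes and 96968 in total hippocampus, 2.13-fold lower. Both are bright sets, in the range where low ratios were common. The other 3 genes past 2-fold, named after their values were seen, were Nqo1, a quinone reductase, at 2.10-fold lower, Akr1b1, aldose reductase, at 2.05-fold, and Prdx3, the mitochondrial peroxiredoxin, at 2.02-fold. Prdx3 read 2874 in synaptosomes and 6530 in total hippocampus, and its other set read 1012 in synaptosomes and 1793 in total hippocampus, a ratio of -0.65. Of these readings only the 6530 lay above the spread of negative values of its array. Txn2, the mitochondrial thioredoxin and also chosen after its value was seen, read 18519 in synaptosomes and 20515 in total hippocampus, a ratio of 0.02.

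At the other end, the 4 highest genes above the floor on both arrays were Slc3a2, Me1, Txnrd1 and Prdx6. Slc3a2, the heavy chain of the cystine-glutamate exchanger and other amino acid transporters, was 2.73-fold and 3.07-fold higher with its 2 probe sets. The first read 7042 in synaptosomes and 2902 in total hippocampus and the other 7102 in synaptosomes and 2601 in total hippocampus, so they gave close values, with both hippocampus readings within the spread of negative values. Me1, malic enzyme and a source of NADPH, was 2.45-fold higher with the probe set used, with 2342 in synaptosomes and 1077 in total hippocampus, both within the spread of negative values. Txnrd1, the cytosolic thioredoxin reductase that recharges thioredoxin, read 5361 in synaptosomes and 3197, also within that spread, in total hippocampus, 1.89-fold higher. Prdx6, a peroxiredoxin that uses glutathione, read 13968 in synaptosomes and 9776 in total hippocampus, 1.61-fold higher. Another of its sets had a ratio of -0.12. The third had one of 1.12 with the hippocampus at the floor and both readings within the spread of negative values. The brightest set of Prdx6 lay on the other side of 0 from Prdx1 and Prdx2.

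The other 4 higher genes, also named after their values were seen, were at the floor in the hippocampus. Idh2, the mitochondrial NADPH-making isocitrate dehydrogenase, was at least 5.26-fold higher against the floor without centring, and Gsto1, an omega-class glutathione transferase, at least 5.03-fold. Hmox1, heme oxygenase, had signals of 2231 in synaptosomes and 715 in total hippocampus, and Txnrd2, the mitochondrial thioredoxin reductase, 1833 in synaptosomes and 813 in total hippocampus. The synaptosome readings of Hmox1 and Txnrd2 lay within the spread of negative values of their own array too, so no fold is given for them. A second set of Gsto1 had a ratio of -0.01 with synaptosomes at the floor. A second set of Idh2 had one of 0.50 with the hippocampus at the floor, and neither set passed the filter. With both arrays floored at 5280.25, 0 of 23 genes of this list were higher and 3 lower by 2-fold or more, where 8.27% and 7.97% of all 991 genes left were. Nfe2l2 itself, Gsr, the glutathione reductase, and Gss, glutathione synthetase, were among the 16 genes on the array that did not pass the filter.

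**Figure D3:**
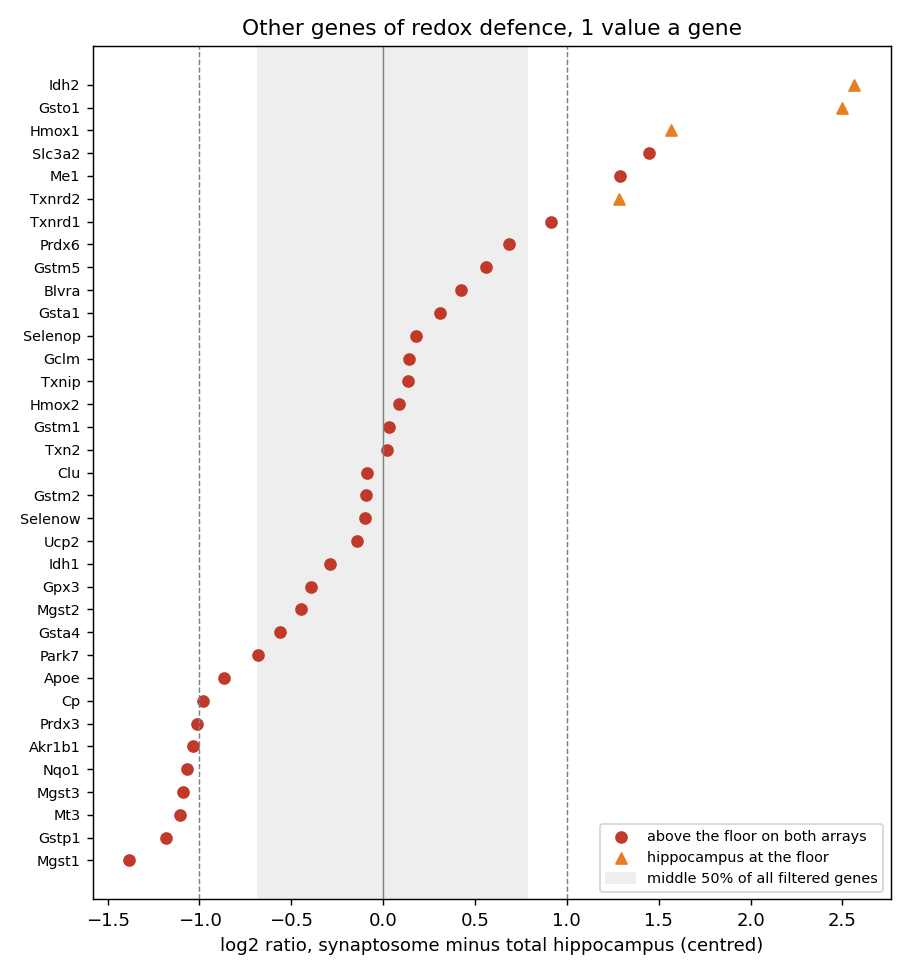
Centred log2 ratio, synaptosome minus total hippocampus, of the 35 filtered genes of the redox list, 1 value a gene from its brightest probe set, with the middle 50% of all filtered genes (-0.68 to 0.78) shaded and dashed lines at 2-fold. Circles are above the floor on both arrays, and triangles have the hippocampus at the floor; 7 genes lie past 2-fold on the left and 6 on the right.

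Markers of the cell types in hippocampal tissue were read beside these values, because a whole-tissue sample holds them all. Over all filtered genes, 19.1% were higher and 14.3% lower by 2-fold or more. Neuronal markers were present on both arrays, with 9 of 10 genes past the filter, none higher and 2, Snap25 and Gap43, lower by 2-fold or more. Their median ratio was 0.35, the value of Syt1, whose readings both lay within the spread of negative values. The summed floored signal of the neuronal markers, to which Snap25 adds most in the hippocampus, was 145497 in synaptosomes and 202774 in total hippocampus. Astrocyte markers summed to 208513 in synaptosomes and 218382 in total hippocampus, with 1 of 7 genes, S100b, higher and 1, Slc1a2, lower. The set used for Slc1a2 had a ratio of -1.51 with both readings within the spread of negative values. Other filtered sets of Slc1a2 had ratios of 1.24 and -0.77. Oligodendrocyte markers summed to 29296 in synaptosomes and 49584 in total hippocampus, with 3 of 6 genes, Mbp, Mobp and Mog, lower and 1, Cnp, higher. The Mbp reading in synaptosomes and the Cnp reading in total hippocampus lay within the spread of negative values. The synaptosome RNA thus gave signals for glial as well as neuronal markers.

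Vessel wall markers summed to 6565 in synaptosomes and 15482 in total hippocampus. Of 4 genes, 3 were at least 2-fold lower, Kdr, Flt1 and Acta2, and Pecam1 had a ratio of 0.38. Kdr was at the floor in synaptosomes. Among the readings of these genes only that of Flt1 in total hippocampus, 7504, lay above the spread of negative values. Red blood cell markers summed to 15354 in synaptosomes and 68384 in total hippocampus, and 2 of 4 genes, the beta globins Hbb and Hbb-b1, were 4.58-fold and 5.17-fold lower, while Slc4a1 was -0.15 with its gene value and 2.19 with another probe set. Microglial markers summed to 66017 in synaptosomes and 70989 in total hippocampus, with 0 of 3 genes past 2-fold in either direction and Csf1r and Itgam at the floor on both arrays, although a second set of Aif1 was 6.70-fold higher. No marker list apart from the microglial one had all its genes within 2-fold, and the part of these cells in the antioxidant ratios was not tested. For a synaptosome fraction, less material of a cell type and less RNA in that material cannot be told apart.

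**Figure D4:**
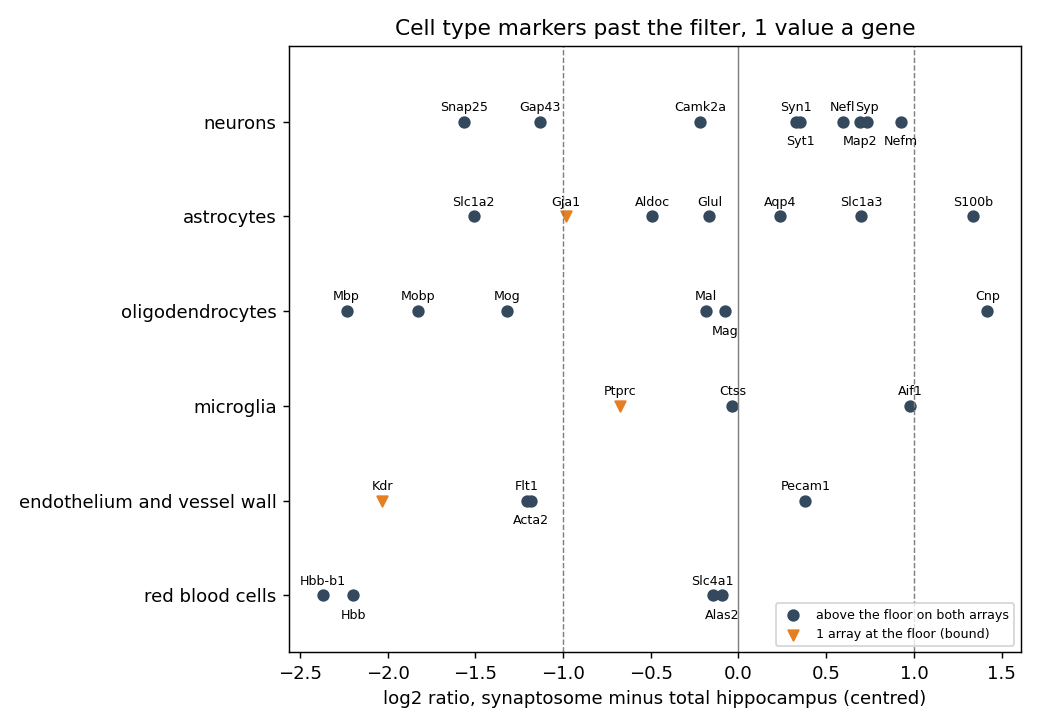
Centred log2 ratio, synaptosome minus total hippocampus, of the filtered marker genes of 6 cell types, 1 value a gene from its brightest probe set, with dashed lines at 2-fold; triangles are bounds with 1 array at the floor. Both globins, Mbp and Kdr lie under -2, while neuronal markers spread from -1.56 to 0.92.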

How the data were processed

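The authors' deposited table holds 1 linear intensity value for each of 8799 probe sets, 59 of them controls, on 1 synaptosome and 1 total hippocampus array. Per the labels' protocols, column-purified total RNA was amplified from an oligo(dT)-T7 primer with the SMART kit and labelled with biotin. The sources used here name no scanner software, background correction or scaling. The values are whole numbers, 25.2% and 31.4% at or below 0 on the synaptosome and hippocampus arrays, and the mean without the extreme 2% at each end was 2500 on both, so no scaling was added. Values under percentile 50 of the pooled non-control values, 846, were set to it before log2. The filter kept probe sets with a mean log2 level at or above the median, 10.07. Gene names came from the platform annotation, checked by gene identifier against RefSeq. Every probe set of the antioxidant genes is named, and of the redox list the 4 highest and 4 lowest genes above the floor on both arrays. Genes, lists and settings were chosen with earlier results of these data known. Alternatives were no centring, a floor at percentile 75 (2798.5), quantile normalization, loess (span 0.4), no filter, the mean over probe sets, no suffixed probe sets, and 2 chosen after seeing the data: a floor at 5280.25 and no _i_at sets. The software was pandas 2.3.3, NumPy 2.4.6 and statsmodels 0.14.6 under Python 3.11.15, with plots from matplotlib 3.10.9. The steps were tested on simulated data without noise, with shifts only in probe sets far above the floor, so readings near the floor were not covered.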

Additional observations from a re-analysis of the deposited data

How the results depend on the processing

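No paired analysis was possible because each group has 1 array. The count of antioxidant genes at least 2-fold lower, 1 of 7, was 2 without centring and without the filter. It was also 2 with the floor at percentile 75 (of 5 genes left) and with the mean over probe sets. In each of these Sod1 passed 2-fold beside Sod2. Over all genes kept, 19.5% were lower without centring, 13.3% without the filter and 7.91% with the floor at percentile 75. In the mean over probe sets Sod1 passed through M25157mRNA_i_at, at -5.84, its other sets being at 0.07 and -0.97. With the floor at 5280.25 the count was 1 of 5, the gene being Sod1 at -1.05 and not Sod2. The count was 0 without suffixed probe sets, which leaves 3 genes and not Sod2. The share over all genes was not computed there or with the mean over probe sets. The count higher was 0 in all 9 alternatives. The count of antioxidant probe sets at least 2-fold lower, 2 of 10, was 3 of 10 without centring and 3 of 7 with the floor at percentile 75. It was 3 of 11 without the filter and 1 of 9 without _i_at sets, where the share over all probe sets was not computed. Over all probe sets kept, 20.3% were lower without centring, 8.94% with the floor at percentile 75 and 13.6% without the filter. The ratio of M25157mRNA_i_at of Sod1, a bound set by the floor, was -4.20 and that of Sod2 -1.09 with the floor at percentile 75, and they were -3.27 and -0.17 with the floor at 5280.25. The other 50 of 54 recomputed probe set ratios moved by less than the SD of 0.90. The signs of Gpx4 and M21060_s_at of Sod1 were not stable: over the alternatives they ranged from -0.04 to 0.09 and from -0.10 to 0.03. For the redox list, 1 of 29 genes was at least 2-fold higher with the floor at percentile 75, where 10.1% of all 1719 genes kept were. Without suffixed sets 2 of 24 were, and the share over all genes was not computed there. With the floor at 5280.25, 0 of 23 were higher and 3 lower, where 8.27% and 7.97% of all genes kept were. Without centring, 14.7% of all filtered genes were higher and 19.5% lower by 2-fold or more, against 19.1% and 14.3% with it.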

Other observations

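The probe set rc_AI176460_s_at, which the platform annotation gives to 10 genes, Gpx4 and Hbb among them, read 59488 in synaptosomes and 143672 in total hippocampus, 2.15-fold lower. It cannot be assigned to 1 gene.

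Of the mu-class glutathione transferases on the redox list, chosen after their values were seen, Gstm5 had ratios of 0.56 and 0.65 with its 2 probe sets. Gstm1 had ratios of 0.03, 0.05 and -0.39 with 3 probe sets, and Gstm2 had ratios of -0.10 and -0.38 with 2. No probe set of these 3 genes was past 2-fold.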
